A study of Mus musculus with 4 samples.

Results

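The genes described here encode claudins and other proteins of the tight junction, the seal between neighbouring epithelial cells. They were taken by symbol from a fixed list of 10 genes: Cldn1, Cldn3, Cldn4, Cldn7, Cldn8, Cldn10, Ocln, Marveld3, Tjp1 and Tjp3. The list was chosen with earlier results of these data known, so its contrasts with all genes below are descriptions and no independent support. All 10 were found among the 53465 genes of the count files, and all 10 passed the filter on low counts. RNA was sequenced from Fgf10-positive cells of the submandibular gland, a major salivary gland, in C57BL/6J mice of genotype Fgf10CreERT2:Rosa26Tomato fl/fl. In such mice a tamoxifen-activated Cre recombinase made from Fgf10 regulatory sequence switches on a red reporter, so the cells carry the mark of Fgf10 activity at the time of injection. Every mouse received 0.1 mg tamoxifen per g of body weight. The 2 adult libraries came from postnatal day 60 after injection on days 57 and 58, and the 2 pup libraries from postnatal day 7 after injection on days 4 and 5. No library without Cre or tamoxifen was analysed here. The labels do not say whether animals were pooled or how replicates were separated, so each p-value reflects the spread among 4 libraries, which may be technical.

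Tight junctions close the space between epithelial cells near their apical side. Claudins are membrane proteins that polymerise into the strands of the junction, and the set of claudins a cell makes decides which ions and how much water pass between cells. Some, such as those encoded by Cldn3, Cldn4 and Cldn8, are known mostly as sealing claudins, while that of Cldn10 is known to form channels. Ocln encodes occludin, and Marveld3 another protein of the same MARVEL family, both strand proteins. Tjp1 and Tjp3 encode cytoplasmic zonula occludens scaffolds that tie the strands to actin. In salivary glands the junctions of acini and ducts separate primary saliva from the tissue fluid.

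Values are raw read counts per gene, given here as CPM, counts scaled to a common library size with TMM factors. Gene counts ranged from 7289792 to 21490686 per library. Pup replicate 1 stood apart: 76.7% of all its tallied reads lay outside annotated features, against 9.70% to 10.6% in the other libraries, and 96.5% of 1134 olfactory receptor genes had a count in it, against 1.59% to 7.67%. At the rate per kb of exon of those receptor genes, background in pup replicate 1 was expected to give 1.49% of the counts of Cldn4 but 37.1% of those of Tjp3, 45.8% of those of Cldn1 and 49.4% of those of Marveld3. Fgf10 itself measured 195 and 40.3 CPM in the adult libraries and 27.3 and 24.1 CPM in the pup libraries. Summed over marker lists, epithelial reference genes reached 12215 and 15491 CPM at day 60 and 1905 and 4414 CPM at day 7. Mesenchymal markers, which include collagens and Pdgfra, reached 1257 and 22444 CPM against 26112 and 59746 CPM. Both kinds of marker were therefore present in every library.

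Most of the claudin and tight junction genes described here were more abundant in the adult libraries. Of the 10 genes, 7 had both adult libraries above both pup libraries: Cldn3, Cldn4, Cldn7, Cldn8, Ocln, Tjp3 and Marveld3. Over all 16320 genes tested, 21.8% had both adult libraries on top and 27.1% had both at the bottom, where none of the 10 lay. The fitted differences of Cldn4, Cldn10 and Ocln turned negative when libraries were scaled by epithelial genes, and those of Cldn1 and Tjp1 also under other scalings. Scaled by epithelial genes, all genes tested had a median log2 fold change of -2.61. Markers of cell types moved with age in the same libraries. The 8 ionocyte markers (Foxi1, Ascl3, Cftr and others) all had both adults above both pups and were all called higher in adult by DESeq2, with a median log2 fold change of 6.72 and summed levels of 7867 and 4974 CPM at day 60 and 167 and 217 CPM at day 7. Of 8 basal and myoepithelial markers 7 were tested and all 7 had a negative value (median -1.36, sums of 5136, 2183, 4908 and 14240 CPM in adult replicates 1 and 2 and pup replicates 1 and 2), as had 4 tested Schwann and nerve markers of 6 (median -4.78, sums of 26.7, 56.2, 119 and 184 CPM in that order). Their part in the members' differences was not tested. Log2 fold changes of adult over pup had a median of 2.40 over the 10 genes and -0.24 over all genes tested. By edgeR's quasi-likelihood test with Benjamini-Hochberg adjustment over all genes, none of the 10 was called at an adjusted p of 0.05, nor was any other gene in either direction (0% in adult, 0% in pup). With p left unadjusted and under 0.05, edgeR had 978 genes on the adult side, 5 of the 10 among them, and 1385 on the pup side. DESeq2 called 6 of the 10 higher in adult (Cldn3, Cldn4, Cldn7, Cldn8, Tjp3 and Marveld3) and 0 lower. It called 3.97% of the genes it gave an adjusted p higher in adult and 5.61% higher in pup. limma-voom called 0 genes (1220 and 1001 at an unadjusted p under 0.05). For a single value, 2 libraries against 2 allow no exact permutation p (two-sided) below 0.333.

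**Figure D1:**
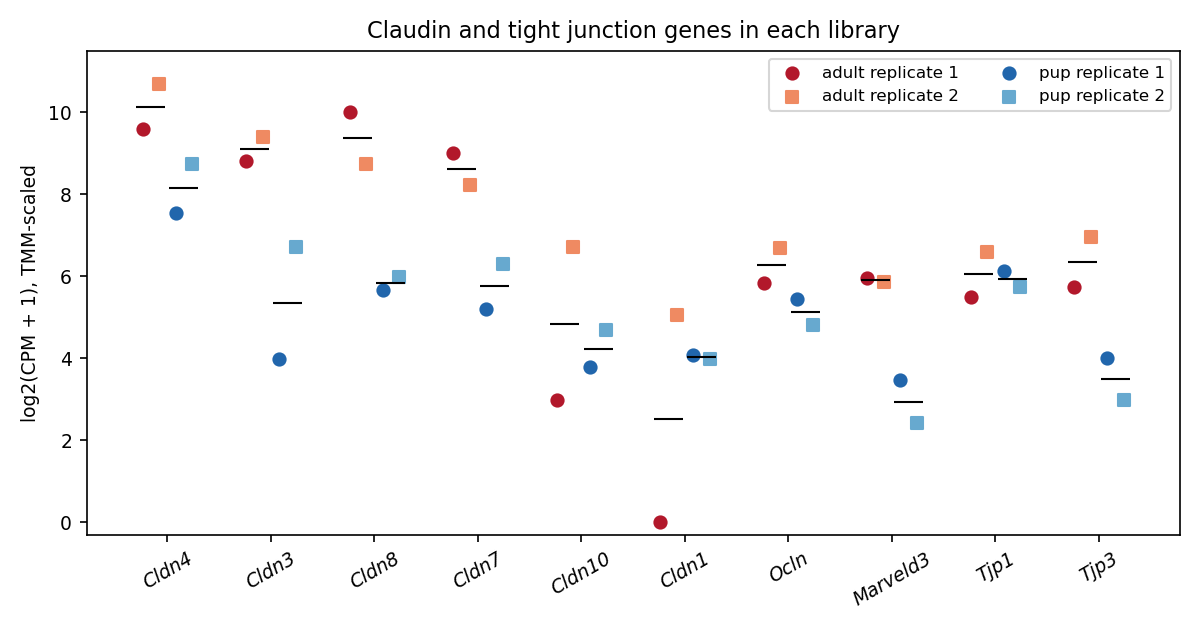
Level of each of the 10 genes in each of the 4 libraries, as log2 of TMM-scaled CPM plus 1, with a black line at the mean of the 2 libraries of an age on that scale. The adult points of Cldn3, Cldn4, Cldn7, Cldn8, Ocln, Tjp3 and Marveld3 all lie above the pup points, whereas Cldn1 is at 0 in adult replicate 1 and on top in adult replicate 2.

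Cldn8, Cldn3, Cldn7 and Cldn4 were the claudins with the higher adult levels. Cldn8 (ENSMUSG00000050520, chromosome 16, 88560828 to 88563183 in GRCm38, minus strand), a sealing claudin known from the distal nephron and from ducts, stood at 1033 and 423 CPM in adult replicates 1 and 2 and at 50.2 and 62.4 CPM in pup replicates 1 and 2. Adult replicate 1 was 2.44 times adult replicate 2, and both were far above the pups, which lay within 1.24 times of each other. The log2 fold change was 3.69 ± 0.81 (SE, 2 libraries per age; edgeR adjusted p = 0.220, DESeq2 adjusted p = 1.79e-07).

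Cldn3 (ENSMUSG00000070473, chromosome 5, 134986214 to 134987472, plus strand), a claudin of many simple epithelia, lay at 452 and 679 CPM in adults and at 14.9 and 103 CPM in pups. The adults were close to each other, and the pups differed 6.91-fold. Its log2 fold change was 3.26 ± 1.05 (SE; edgeR adjusted p = 0.284, DESeq2 adjusted p = 0.00375), and it was 5.24 without pup replicate 2 and 2.45 without pup replicate 1.

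Its neighbour Cldn4 (ENSMUSG00000047501, chromosome 5, 134945119 to 134946934, minus strand) lies 39280 bases away with no protein-coding gene between. It was the member with the most reads in 3 libraries, all but adult replicate 1, where Cldn8 was higher. Its levels were 769 and 1646 CPM at day 60 and 185 and 429 CPM at day 7. The ages did not overlap, and the libraries differed 2.14-fold within the adults and 2.32-fold within the pups. With a log2 fold change of 1.98 ± 0.94 (SE) it had the smallest difference of the 6 genes that DESeq2 called (adjusted p = 0.0258), and edgeR gave an adjusted p of 0.421. Leaving out adult replicate 2 gave 1.33, and leaving out pup replicate 2 gave 2.71.

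Cldn7 (ENSMUSG00000018569, chromosome 11, 69964779 to 69967885, plus strand), whose product is known also from the basolateral membrane, had adult levels of 514 and 297 CPM and pup levels of 35.9 and 78.4 CPM. Like Cldn8, and unlike Cldn3 and Cldn4, it was higher in adult replicate 1 than in adult replicate 2. The log2 fold change was 2.82 ± 0.71 (SE; edgeR adjusted p = 0.244, DESeq2 adjusted p = 0.000207).

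Because 8 of the 10 genes had an entry in the RefSeq promoter table (GRCm38.p6, 300 bases from 250 before to 50 after an annotated start), these windows could be read side by side. Cldn8 and Marveld3 had no entry. They are shown for Cldn3 and Cldn4, which neighbour each other, for Tjp3, a scaffold gene with higher adult levels, and for Cldn1, which holds no match to the motif marked. Capitals mark the letters CACCTG on either strand (read as CACCTG or CAGGTG), the E-box core known to be bound by the SNAI and ZEB repressors of epithelial genes. The windows are chr5:134985964-134986263 on the plus strand, and chr5:134946885-134947184, chr10:81291218-81291517 and chr16:26371790-26372089 on the minus strand.
Cldn3: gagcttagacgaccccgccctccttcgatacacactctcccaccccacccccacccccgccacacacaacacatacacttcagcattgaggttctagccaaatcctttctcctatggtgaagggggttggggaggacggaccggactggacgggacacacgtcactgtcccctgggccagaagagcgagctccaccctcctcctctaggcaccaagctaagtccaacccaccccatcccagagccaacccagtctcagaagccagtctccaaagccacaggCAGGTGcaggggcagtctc
Cldn4: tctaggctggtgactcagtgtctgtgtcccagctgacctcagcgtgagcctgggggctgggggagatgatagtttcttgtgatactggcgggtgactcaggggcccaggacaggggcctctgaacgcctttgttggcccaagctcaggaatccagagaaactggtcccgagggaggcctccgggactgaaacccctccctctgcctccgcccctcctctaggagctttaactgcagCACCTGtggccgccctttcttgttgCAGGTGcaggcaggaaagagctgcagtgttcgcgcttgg
Tjp3: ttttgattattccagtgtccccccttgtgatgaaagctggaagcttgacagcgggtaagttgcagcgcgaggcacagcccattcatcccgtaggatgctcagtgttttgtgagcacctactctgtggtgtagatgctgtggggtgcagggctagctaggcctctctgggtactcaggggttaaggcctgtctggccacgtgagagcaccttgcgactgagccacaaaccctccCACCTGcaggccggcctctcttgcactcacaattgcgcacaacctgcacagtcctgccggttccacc
Cldn1: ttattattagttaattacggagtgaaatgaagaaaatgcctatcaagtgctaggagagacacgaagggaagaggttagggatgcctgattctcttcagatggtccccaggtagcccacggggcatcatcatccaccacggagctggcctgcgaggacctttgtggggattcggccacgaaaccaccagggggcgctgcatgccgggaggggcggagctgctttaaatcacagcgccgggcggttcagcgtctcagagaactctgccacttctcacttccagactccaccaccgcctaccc

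The E-box core stood 32 bases after the start in Cldn3. In Cldn4 it stood 14 bases before the start and again 12 bases after it, and in this Tjp3 window 17 bases before. It was found in 7 of the 12 windows of the members, those of Cldn3, Cldn4, Ocln and Tjp3 and the second of Cldn7, and the 2 windows of Ocln overlap and share a match. Of all 32851 windows of that length in the table, 20.2% held it. G and C made up 36% to 72% of the letters in the members' windows, mostly above the median of 52.7% over all windows. The shares given here were not matched for this. The windows of Cldn1, Cldn10 and Tjp1 and the first of Cldn7, a gene with higher adult levels, did not hold these letters. It was the motif singled out of 6 after the search, and the match says nothing of binding in these cells. The grainyhead motif AACCGGTT, the forkhead motif TGTTTAC and TATAAA were in none of the 12 windows (0.146%, 3.65% and 13.6% of all windows), and the GC box GGGCGG was in 8 (35.7% of all windows), each searched on both strands. Of the repressor genes, Snai2 measured 32.3 and 13.7 CPM in the adult libraries and 68.8 and 171 CPM in the pup libraries. Zeb1 stood at 2.30 and 10.6 CPM against 58.1 and 41.5 CPM. DESeq2 called both higher in pup (adjusted p = 0.0212 and 0.0195), and edgeR neither (adjusted p = 0.273 and 0.272). Summed mesenchymal markers were also higher in the pups (26112 and 59746 CPM) than in the adults (1257 and 22444 CPM). Any part of Snai2 and Zeb1 in the members' differences was not tested.

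Compared per length, the claudin transcripts of all 4 libraries were mainly those of Cldn3, Cldn4, Cldn7 and Cldn8. On the scale of CPM per kb of exon, these 4 made up 98.8% and 95.4% of the summed level of 33 claudin genes in adult replicates 1 and 2, and 77.0% and 93.5% in pup replicates 1 and 2. The summed level itself was 1503 and 1864 CPM per kb in the adults and 199 and 412 CPM per kb in the pups. Shares within a library do not move with its scaling. Cldn4 took 28.2% and 48.6% at day 60 and 51.1% and 57.3% at day 7. Cldn8 took 29.2% in adult replicate 1, where it was the leading claudin, and 9.63%, 10.7% and 6.43% in the second adult and the 2 pup libraries. The ratio of Cldn4 to Cldn8 per length was accordingly 0.966 in adult replicate 1 and 5.05, 4.77 and 8.92 in the same order, so that adult replicate 2 lay with the pups. Cldn3 took 23.9% and 28.9% at day 60 and 5.96% and 19.9% at day 7, the only one of the 4 whose share was higher in both adults than in both pups. After subtraction of the expected background, the shares of Cldn4, Cldn3, Cldn8 and Cldn7 in pup replicate 1 were 60.2%, 6.22%, 11.9% and 10.2%. The 77.0% of these 4 genes in that library thus includes background in the other claudins.

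**Figure D2:**
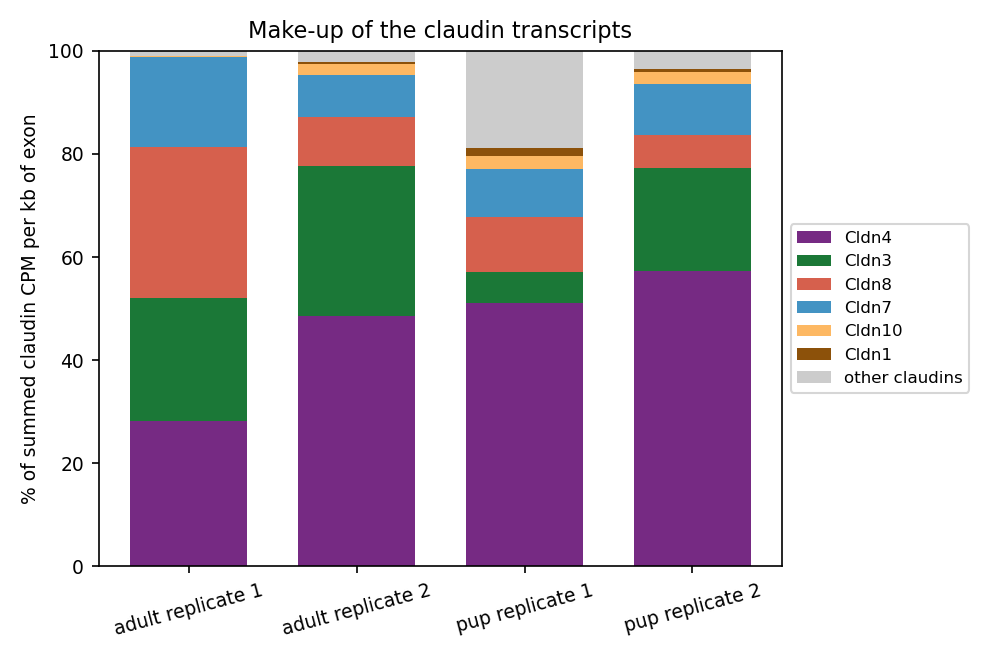
Make-up of the claudin transcripts of each library, as the percent of the summed CPM per kb of exon over 33 claudin genes. Cldn4 is the largest part in adult replicate 2 and in both pups (48.6% to 57.3%), adult replicate 1 divides mainly between Cldn8 (29.2%), Cldn4 (28.2%), Cldn3 (23.9%) and Cldn7 (17.5%), and the grey part is widest in pup replicate 1. Expected background, highest in pup replicate 1, is not subtracted here.

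Cldn1 and Cldn10 showed no age difference beyond their spread, and both differed between the adults. Cldn1 (ENSMUSG00000022512, chromosome 16, 26356642 to 26371841, minus strand), a claudin of stratified and basal epithelium, had 0 counts in adult replicate 1 and 452 in adult replicate 2, which were 32.5 CPM. It stood at 16.02 and 14.9 CPM in the pups, between the adults. Against a floor of 3 counts in that library, adult replicate 2 was at least 142-fold higher than adult replicate 1. The fitted log2 fold change of 0.07 ± 1.997 (SE; edgeR adjusted p = 0.992) therefore averages unlike libraries: leaving out adult replicate 1 gave 1.02 and leaving out adult replicate 2 gave -10.74, a fitted value that is no bound.

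Cldn10 (ENSMUSG00000022132, chromosome 14, 118787908 to 118875489, plus strand) stood at 6.90 and 104 CPM in the adults, a 15.04-fold difference, and at 12.8 and 24.7 CPM in the pups. The fitted log2 fold change was 1.56 ± 1.15 (SE; edgeR adjusted p = 0.626, DESeq2 adjusted p = 0.559), and it turned to -1.44 without adult replicate 2. Cldn10 has 2 annotated starts in the RefSeq table, known to give isoforms with different ion selectivity, and counts per gene cannot separate them. Markers of other cell types also differed between the adults: the summed level of 7 acinar markers was 170 and 11033 CPM in adult replicates 1 and 2, with Aqp5, Dcpp1, Muc19 and Lpo at 0 counts in the first, that of 7 duct markers 4937 and 15042 CPM, and that of 9 mesenchymal markers 1257 and 22444 CPM. In the pups, acinar markers summed to 616 and 1845 CPM and duct markers to 188 and 591 CPM. Their part in the values of Cldn1 and Cldn10 was not tested, and in bulk samples fewer cells of a type and less RNA per cell cannot be told apart.

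Among the strand proteins of the MARVEL family, Marveld3 differed more between ages than occludin. Marveld3 (ENSMUSG00000001672, chromosome 8, 109947914 to 109962203, minus strand) stood at 60.8 and 56.9 CPM in the adults, the closest pair of adult values among the 10 genes, and at 10.1 and 4.36 CPM in the pups. The log2 fold change was 3.03 ± 0.64 (SE; edgeR adjusted p = 0.210, DESeq2 adjusted p = 0.00331). Background was expected to give 45.9 of its 93 counts in pup replicate 1, and without that library the value was 3.75.

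Ocln (ENSMUSG00000021638, chromosome 13, 100496507 to 100552718, minus strand) lay at 56.6 and 102 CPM in adults and at 42.7 and 27.0 CPM in pups. The ages did not overlap, but the gap between the lower adult and the higher pup was smaller than the spread within the adults. The log2 fold change was 1.19 ± 0.54 (SE; edgeR adjusted p = 0.399, DESeq2 adjusted p = 0.367). Marveld2, which encodes tricellulin, the MARVEL protein of the corners where 3 cells meet, is the next protein-coding gene on the chromosome, 43239 bases from Ocln. It had adult levels of 49.8 and 45.6 CPM and pup levels of 17.1 and 3.52 CPM (log2 fold change 2.22 ± 0.84, SE; edgeR adjusted p = 0.304).

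The zonula occludens scaffolds differed in their ratio. Tjp3 (ENSMUSG00000034917, chromosome 10, 81273207 to 81291581, minus strand) measured 52.5 and 122 CPM in the adult libraries and 15.2 and 6.94 CPM in the pup libraries, with a log2 fold change of 2.99 ± 0.69 (SE; edgeR adjusted p = 0.232, DESeq2 adjusted p = 0.00574). Without adult replicate 1 edgeR called it, at a log2 fold change of 3.41 (adjusted p = 0.00304). It was not called without adult replicate 2 (2.25, edgeR adjusted p = 0.159), pup replicate 1 (3.65, 0.370) or pup replicate 2 (2.53, 0.343). Tjp1 (ENSMUSG00000030516, chromosome 7, 65296165 to 65527781, minus strand), the scaffold present in most junctions and also outside epithelia, lay at 44.5 and 96.4 CPM in adults and at 69.5 and 52.2 CPM in pups. Both pup values lay between the adult ones, and the log2 fold change was 0.21 ± 0.55 (SE; edgeR adjusted p = 0.908), turning to -0.45 without adult replicate 2. Within each library, the level of Tjp3 per kb of exon was 2.48 and 2.67 times that of Tjp1 in the adults and 0.459 and 0.279 times in the pups. This ratio does not depend on how libraries are scaled. The adults lay close together and Tjp3 led there, while Tjp1 led in both pups. With the expected background subtracted the pup ratios were 0.348 and 0.279. Several ratios between genes were computed, and this ratio was not among the planned results. Its exact two-sided permutation p is 0.333, the smallest that 2 libraries against 2 can give and the same for any ratio with the ages apart.

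**Figure D3:**
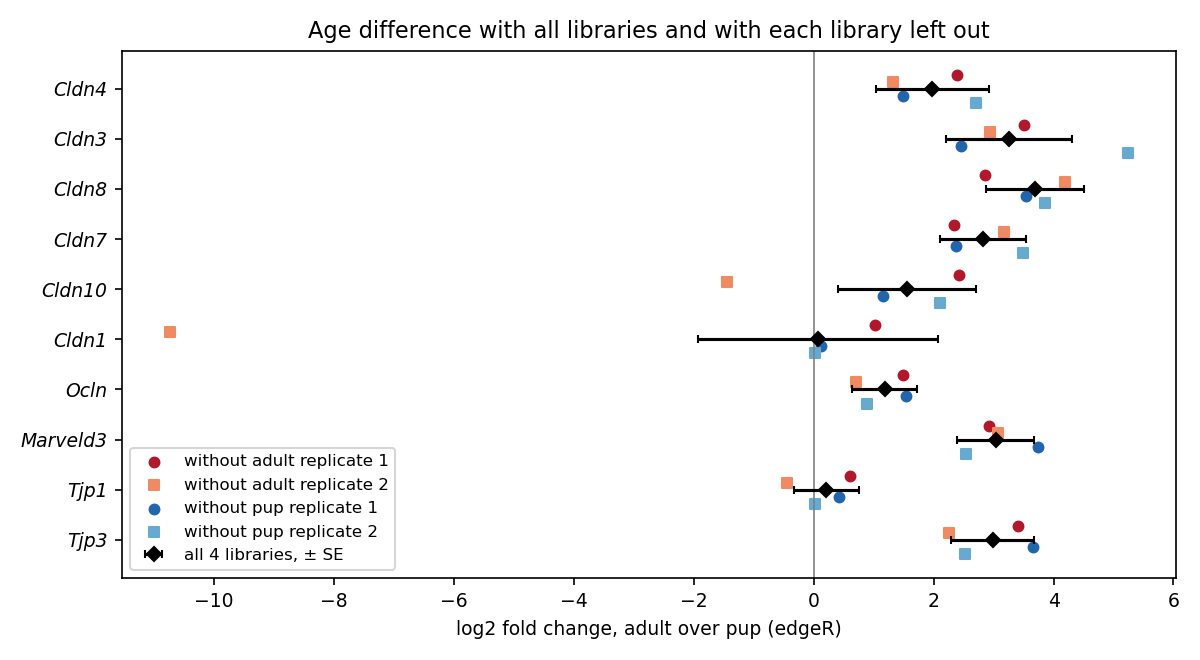
Log2 fold change of adult over pup for each of the 10 genes by edgeR, with all 4 libraries (black, with SE) and with each library left out in turn (coloured). Values of Cldn3, Cldn4, Cldn7, Cldn8, Ocln, Marveld3 and Tjp3 stay above 0 in each of these fits, and those of Cldn1 and Cldn10 move to -10.74 and -1.44 without adult replicate 2.

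The order of the 10 levels per length was similar at its top and differed at its bottom. In the adults, Cldn4 averaged 665 ± 342 CPM per kb (SD, n = 2), Cldn3 449 ± 127, Cldn8 309 ± 183 and Cldn7 208 ± 78.7 CPM per kb. Each of these overlapped the next in its range, and all 4 lay above the other members. Tjp3, Cldn10, Ocln and Marveld3 followed with mean levels of 23.6 to 17.9 CPM per kb and overlapping ranges, then Tjp1 at 9.02 ± 4.70 and Cldn1 at 3.36 ± 4.75 CPM per kb. In the pups, Cldn4 averaged 169 ± 95.1 CPM per kb (SD, n = 2) and did not overlap Cldn3 at 46.9 ± 49.6 CPM per kb, which overlapped Cldn7 at 29.4 ± 15.4 and Cldn8 at 23.9 ± 3.66 CPM per kb. Tjp3 and Marveld3, at ranks 5 and 8 in the adults, had the lowest means of the 10 in the pups, with background not subtracted. These means were 2.97 ± 1.56 and 2.20 ± 1.23 CPM per kb. Tjp3 overlapped both Marveld3 and Cldn1, whose mean was 3.20 ± 0.16 CPM per kb.

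Epithelial genes as a whole had higher levels in the adults, so each member was also set against 15 epithelial reference genes (Epcam, keratin genes and others). None of these is in the junction lists used here, but their independence of the junctions was not tested. All 15 had a positive log2 fold change, with a median of 2.38 beside the 2.40 of the members, and DESeq2 called 11 of them higher in adult. The value given here is the log2 ratio of a member's CPM to the geometric mean of the reference CPM plus 1 in the same library, a description with no test. On this scale Cldn3 stood at 0.00 and 0.56 in the adults and at -2.07 and -0.12 in the pups, and Cldn8 at 1.19 and -0.12 against -0.32 and -0.85. These 2 were the members with both adults above both pups. Ocln, at -3.00 and -2.17 in adults against -0.55 and -2.05 in pups, and Tjp1, at -3.35 and -2.25 against 0.15 and -1.10, had both adults below both pups. So had Cldn1, at -3.82 in adult replicate 2 against -1.97 and -2.91 in pups, with 0 counts in adult replicate 1 and so no ratio there. Cldn4, with adult values of 0.76 and 1.84 and pup values of 1.56 and 1.94, overlapped between ages on this scale. So did Cldn7, Cldn10, Tjp3 and Marveld3. The shares of all genes with both adults above or below both pups were not computed on this scale. Which members had the ages apart here therefore cannot be set against other genes, and is not a result particular to the members. With the summed counts of the reference genes as library sizes, edgeR gave a log2 fold change of 1.37 for Cldn3, 1.47 for Cldn8, -0.20 for Cldn4, -1.34 for Ocln and -2.29 for Tjp1, none of them called (adjusted p = 0.130, 0.134, 0.710, 0.210 and 0.0644). The median over all genes tested was -2.61 in that fit, so negative values there are not particular to these members. Relative to Cdh1 alone, the gene for E-cadherin, the mean log2 difference of adult minus pup was 2.49 for Cldn3 and 2.23 for Cldn8. On that scale Marveld3 was at 1.82, Tjp3 at 1.64 and Cldn7 at 1.55, while Ocln was at -0.17, Cldn10 at -0.74 and Tjp1 at -1.21. Cldn4 was at 0.67 relative to Cdh1, where the reference genes gave -0.45 and Epcam alone gave -0.19.

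**Figure D4:**
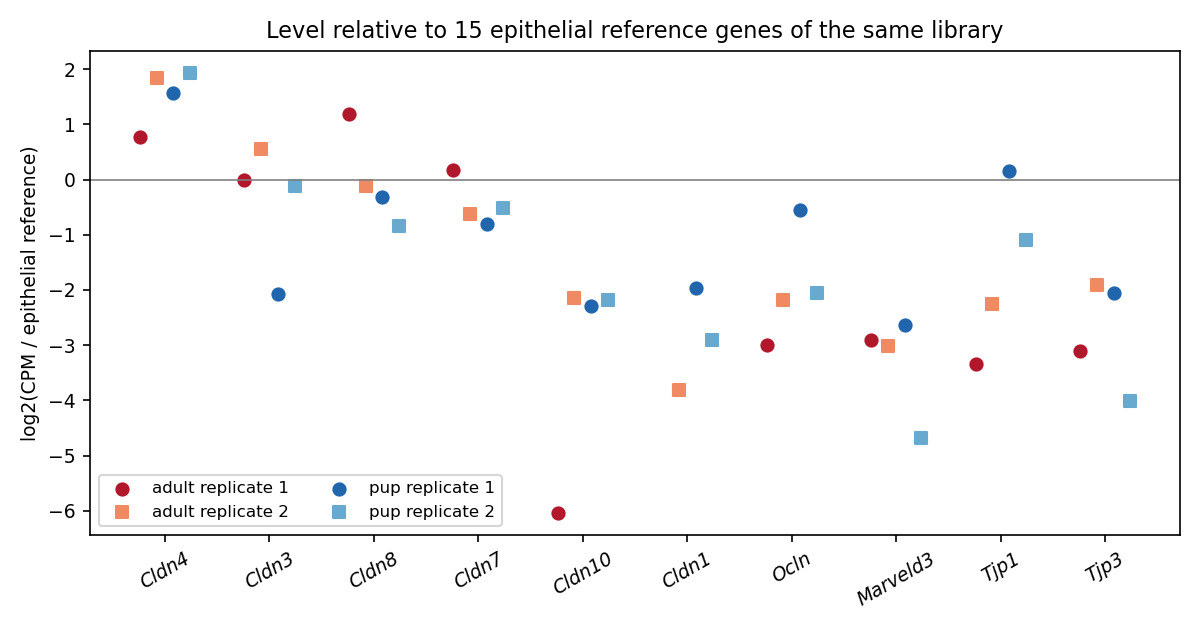
Log2 ratio of each gene's CPM to the geometric mean CPM (plus 1) of 15 epithelial reference genes in the same library. Cldn3 and Cldn8 have both adult points above both pup points, and Ocln and Tjp1 have them below. Cldn1 has no point for adult replicate 1, where it had 0 counts, and its point for adult replicate 2 lies below both pup points.

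The other claudin genes were low. Of 17 listed, 6 passed the filter, 4 of them with a positive and 2 with a negative log2 fold change (median 0.71). edgeR (0 also at an unadjusted p under 0.05) and DESeq2 called none of the 6. Cldn12, a claudin found in many cell types, had adult levels of 22.8 and 7.99 CPM and pup levels of 21.1 and 45.7 CPM, and Cldn23 had 13.6 and 4.82 CPM against 8.87 and 1.26 CPM. Cldn5, the claudin of blood vessel endothelium, had 0 counts in adult replicate 1 and in pup replicate 2, 4.65 CPM in pup replicate 1 and 39.5 CPM in adult replicate 2. The summed level of 8 endothelial markers in the same libraries was 261, 31.4, 169 and 2589 CPM, and Cdh5, Kdr, Tek, Tie1 and Emcn had 0 counts in adult replicate 1. Their part in the Cldn5 value was not tested. Cldn16, next to Cldn1 on chromosome 16, had a count in pup replicate 1 alone, 22 counts with 16.4 expected from background. Cldn17, next to Cldn8, had 10 and 0 counts in the adults, 2 and 0 among the pups, against 13478 and 5872 counts of Cldn8 in the adults. In pup replicate 1, 29 of 33 claudin genes had a count, against 11 to 14 in the other libraries.

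The other tight junction genes did not share 1 direction. Over 6 lists with 62 genes, other claudins included, 50 passed the filter, 24 with a positive and 26 with a negative log2 fold change (median -0.05). Both adults lay above both pups for 17 of the 50 and below for 16, where all tested genes had 21.8% and 27.1%. edgeR called 0 (8 higher in adult and 6 in pup at an unadjusted p under 0.05), DESeq2 4 higher in adult (Ildr1, Cgn, Cgnl1 and Esam) and 5 higher in pup (Mpdz, Amotl1, Clmp, Snai2 and Zeb1), beside 3.97% and 5.61% of all genes to which it gave an adjusted p.

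Of 4 tricellular genes 3 had both adults on top, where 21.8% of all tested genes lay. These were Marveld2, Ildr1, an angulin that recruits tricellulin, at 82.5 and 87.5 CPM against 28.1 and 14.2 CPM (log2 fold change 2.01 ± 0.54, SE; DESeq2 adjusted p = 0.0418), and Lsr at 103 and 75.7 CPM against 27.3 and 73.6 CPM, the lower adult barely above the higher pup and with 44.7% of its exon length shared with other genes. Among 11 scaffold genes the median was -0.14, with 5 positive. Cgnl1, which encodes paracingulin, measured 270 and 201 CPM in the adult libraries and 55.1 and 37.4 CPM in the pup libraries (2.35 ± 0.55, SE; DESeq2 adjusted p = 0.000767). Cgn, for cingulin, had 107 and 155 CPM against 38.5 and 32.7 CPM. In the other direction, Mpdz had 11.4 and 26.1 CPM against 83.4 and 82.1 CPM and Amotl1 12.2 and 38.9 CPM against 114 and 159 CPM. Amotl2 had 128 and 97.0 CPM against 156 and 220 CPM and was not called.

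The JAM family of immunoglobulin-like adhesion proteins was divided as well, with 4 of 7 positive and a median of 0.80. F11r, the gene for JAM-A, lay at 325 and 349 CPM in adults and at 113 and 221 CPM in pups. Esam, known from endothelium, had 17.2 and 189 CPM against 7.47 and 12.1 CPM, high in the library where Cldn5 was high. Clmp had 11.9 and 26.6 CPM against 69.8 and 120 CPM, Jam2 had 159 and 304 CPM against 58.5 and 207 CPM, and Cxadr had 113 and 95.2 CPM against 117 and 198 CPM. Of 8 polarity genes of the PAR and Crumbs complexes, 3 were positive (median -0.19) and edgeR and DESeq2 called none, with 3 at an unadjusted edgeR p under 0.05 (Crb3, Pard6b and Pard6g). Pard3 stood at 101 and 84.1 CPM against 116 and 113 CPM, Prkci at 40.5 and 122 CPM against 93.3 and 157 CPM, and Mpp5 at 62.8 and 58.3 CPM against 67.4 and 59.4 CPM.

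Of 15 regulators 14 were tested, 5 positive and 9 negative (median -0.69). Grhl2, a grainyhead factor known to activate Cldn4, overlapped between ages, at 97.2 and 53.3 CPM at day 60 and 82.1 and 72.3 CPM at day 7 (log2 fold change -0.04 ± 0.50, SE; edgeR adjusted p = 0.984). Ovol1 had 0 counts in adult replicate 1 and stood at 4.61 CPM in adult replicate 2 and at 31.1 and 20.2 CPM in the pups, with 21.96% of its exon length shared with other genes. Arhgef2 had 157 and 130 CPM against 72.9 and 91.0 CPM, and Ybx3 had 96.2 and 99.9 CPM against 46.8 and 161 CPM.

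**Figure D5:**
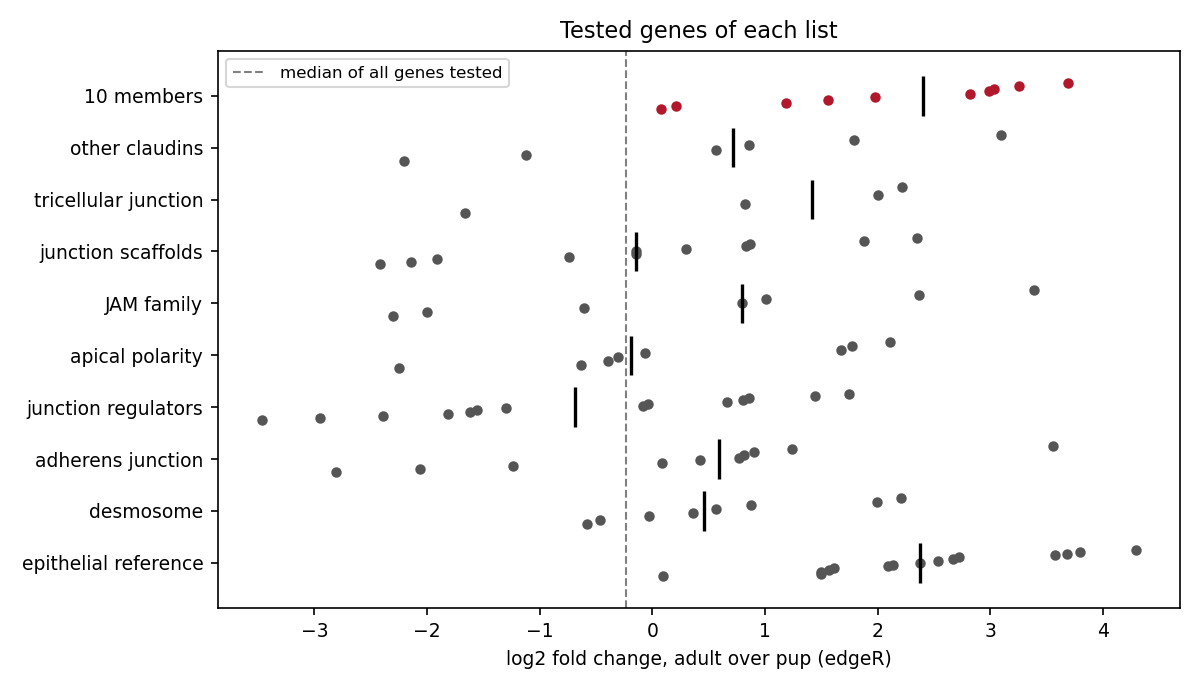
Log2 fold change of adult over pup by edgeR for each tested gene (points) of the members and 9 other lists, with the list's median as a black bar and the median of all genes tested (-0.24) as a dashed line. The 10 members lie from 0.07 to 3.69, while scaffold, JAM, polarity and regulator genes lie on both sides of 0.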

How the data were processed

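The deposited values are raw read counts per Ensembl gene, with a file for each library. Tools given by the submitters' processing notes are cutadapt 1.18, STAR 2.5.2a, HTSeq 0.11.0, R 3.5.1, DESeq2 1.20.0 and the build GRCm38; options, the annotation release and any use of strand in counting were not given in the sources used here. Per the labels, libraries were made with the SMART-Seq HT kit from 1 ng of RNA; no strand information was assumed, so reads where genes overlap have no sure owner (3.18% of exonic bases of Cldn3 and 1.08% of those of Tjp3 are shared, 0% for the other 8 members). HTSeq's tallies, 31.5% to 84.4% of all reads tallied, were left out. A further 8 value columns in 2 tables, which match no single sample, were not used. Symbols, positions and union exon lengths came from GENCODE vM21 (53360 of 53465 IDs matched), promoter windows from RefSeq.

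Counts were fitted over all 16320 genes kept by filterByExpr (minimum count 10, total 15) with edgeR 4.0.16 in R 4.3.3: TMM factors, quasi-likelihood F test, age as the only term, Benjamini-Hochberg adjusted p under 0.05. The SE is the log2 fold change over the square root of F. Beside it stand DESeq2 1.42.0, which gave 15370 genes an adjusted p, and limma-voom (limma 3.58.1). The script was tested on simulated data. The members and lists were chosen with earlier results of these data known. The text names all members, Fgf10, claudins next to a member, and per pathway list the 3 tested genes of highest mean CPM and any with ages apart and a log2 fold change past 3 in size; other genes called by DESeq2 or low in unadjusted p were named after their values were seen, and 1 gene that the rule names is not reported here. Alternatives were other scalings and filters, other tests, the replicate number as a block, background subtraction and each library left out.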

Additional observations from a re-analysis of the deposited data

How the results depend on the processing

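Over all genes, edgeR made 0 calls in either direction. Calls on the adult and on the pup side numbered 284 and 231 when every gene with at least 1 count entered, 13 and 2 with at least 10 counts in every library of an age, 39 and 3158 with the epithelial reference genes as library size, and 610 and 862 by DESeq2. Leaving out 1 library gave 0 to 247 higher in adult and 0 to 733 higher in pup, all calls coming from fits that lacked adult replicate 1 (229 and 161, or 151 and 64 with the filter applied anew) or adult replicate 2 (247 and 733, or 156 and 368). Of the members, 3 were called higher in adult when every gene with 1 count entered (Cldn8, Tjp3 and Marveld3), 6 by DESeq2, and 0 to 1 with a library left out (Tjp3 without adult replicate 1, Marveld3 without adult replicate 2). Between 0 and 1 were called higher in pup (Cldn1 without adult replicate 2). With the filter applied anew in these fits, edgeR still called Tjp3 (adjusted p = 0.0233) but neither Marveld3 (0.0766) nor Cldn1 (0.246). In such fits the lone library is assumed to vary like the other age. The members' median log2 fold change was 0.0836 with epithelial scaling, where the median of all genes tested was -2.61. Elsewhere the members' median moved by less than the spread between libraries.

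Signs turned for Cldn1 and Tjp1, whose main values are near 0, and under the epithelial scaling. Cldn1 was at -0.0279 with DESeq2 size factors, -0.0286 by DESeq2, -0.16 with upper-quartile factors, -0.40 with library totals, -3.67 by limma-voom and -2.48 with epithelial scaling, and from -10.74 to 1.02 with a library left out (-10.69 to 1.21 with the filter applied anew). Tjp1 was at -0.0089 with upper-quartile factors, -0.24 with library totals and -2.29 with epithelial scaling, and from -0.45 to 0.61 with a library left out (-0.36 to 0.81 anew). Cldn10 was at -0.76 with epithelial scaling and from -1.44 to 2.43 with a library left out (-1.39 to 2.55 anew); Cldn4 and Ocln were at -0.20 and -1.34 with epithelial scaling. The cause was not tested. The median of all genes was -0.24 under TMM and -0.31, -0.42 and -0.62 with size factors of DESeq2, with upper quartiles and with totals. With epithelial scaling that median was -2.61. The replicate number as a block gave -3.00 for Cldn1, left the other 9 members positive and changed no call; the deviations of same-numbered libraries correlated at -0.098 across genes, so the numbers were not taken to pair the samples. In all, 149 of 180 refitted values of the members kept their sign and side of the threshold. Depth limits Cldn1 in adult replicate 1, where 0 counts allow up to 0.230 CPM. Marveld3 and Tjp3 had low pup counts, 93 and 140 in pup replicate 1, where 49.4% and 37.1% were expected from background. In pup replicate 2, the library with the most gene counts, they had 83 and 132.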

Other observations

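The junctions next to the tight junction had members at both ends of the age difference, of which Cdh3 and Dsg2 were named after their values were seen. Cdh3, the gene for P-cadherin, a cadherin of basal epithelial cells, had adult levels of 17.4 and 16.3 CPM and pup levels of 102 and 134 CPM (log2 fold change -2.81 ± 0.48, SE; edgeR adjusted p = 0.164, DESeq2 adjusted p = 2.13e-06). Nectin4, an adhesion protein of adherens junctions, stood at 47.7 and 50.1 CPM against 5.74 and 2.63 CPM, a log2 fold change of 3.55 ± 0.69 (SE; edgeR adjusted p = 0.196, DESeq2 adjusted p = 0.000523), with 52.4 of its 53 counts in pup replicate 1 expected from background. Dsg2, a desmosomal cadherin, stood at 269 and 196 CPM against 48.8 and 67.7 CPM (log2 fold change 1.996 ± 0.537, SE; DESeq2 adjusted p = 0.00224). The most abundant genes of these junctions differed less. Cdh1 measured 1325 and 976 CPM in the adult libraries and 308 and 667 CPM in the pup libraries, Ctnna1, for an actin-linking catenin, had 487 and 470 CPM against 165 and 379 CPM, and Ctnnb1, for beta-catenin, had 324 and 378 CPM against 170 and 353 CPM. Of the desmosomal genes, Perp stood at 716 and 622 CPM against 412 and 957 CPM, Jup at 445 and 603 CPM against 217 and 491 CPM and Dsp at 212 and 190 CPM against 93.4 and 220 CPM. The median log2 fold change was 0.60 over 10 adherens junction genes and 0.46 over 8 desmosomal genes.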
